A study of Homo sapiens with 4 samples.

Results

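The transcriptome of NCI-H1048 cells that had received a guide RNA (gRNA) against POU2F3 was compared directly with that of cells that had received a gRNA against COLCA2, without using a control in the ratio. NCI-H1048 was established from a human small cell lung cancer, and the labels give all groups as this line and list no treatment. The POU2F3 group (labelled POU2F3 knockout) held 1 library. The COLCA2 group (labelled COLCA2 knockout) held 2 libraries, made with different gRNAs. These 3 of the 4 poly(A)-selected RNA libraries were compared, and the non-targeting gRNA library (labelled WT) was kept for reference levels only. Values are normalized counts as deposited, summed over rows of the same symbol. Of 35979 symbols, 14940 averaged 20 or more across the 4 libraries and were compared. OR2I1P (mean 20.04) and PCDHGB3 (mean 20.05) lay just inside this minimum, and ARHGAP15 (mean 19.99) and PCDHB15 (mean 19.97) just outside it.

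POU2F3 is a POU-domain transcription factor that binds the octamer motif and is required for tuft cells, rare chemosensory epithelial cells. It also defines the tuft cell-like subtype of small cell lung cancer. COLCA2 (also named POU2AF3) and C11orf53 (POU2AF2) are co-activators that bind POU2F3 and supply the activating function for its target genes. A direct comparison asks where losing the factor and losing this co-activator leave the cells at different levels.

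The reads assigned to genes numbered between 21587741 and 29632382 per library, and the POU2F3 gRNA library was the deepest. The POU2F3 group had no replicate, so guide, culture and library differences cannot be told apart from the effect of the target. The labels do not say whether the COLCA2 libraries came from separate cultures, nor whether any line was a single clone. Error could be read only from the distance between the COLCA2 libraries, which may be technical. A gene is called lower or higher here when the POU2F3 gRNA library was at least 2-fold from each COLCA2 library in the same direction and when its distance from the nearer of them exceeded the distance between them. Differences are of log2(normalized count + 1), so those of low genes are understated. Their SD is that over the differences from the COLCA2 guides, so it holds no variation of the POU2F3 gRNA library. Paired values are those of COLCA2 gRNA 1 and then COLCA2 gRNA 2. Of 18 markers of other cell types, 11 passed the minimum, and the summed normalized count of all 18 lay between 1814 and 2055 per library. CD3E, SFTPC, SCGB1A1 and ASCL3 had at most 3 reads in every library, whereas COL1A1, a fibroblast collagen, had 857 to 1194 reads. FOXJ1, of ciliated cells, had 45 to 215 reads and CD68, of macrophages, 76 to 202. PDGFRA, of fibroblasts, had 254 reads with POU2F3 gRNA against 106 and 69 with the COLCA2 guides and 130 in the non-targeting library, and was not called. The part of these genes in the results was not tested. Among defining tuft genes, TRPM5 had at most 3 reads in every library, whereas AVIL and RGS13 were abundant in the non-targeting library.

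The targeted genes came first. POU2F3 (ENSG00000137709, GRCh38 chromosome 11, 120236640 to 120319944) had a normalized count of 1449 with its own guide, 3677 and 2351 with COLCA2 gRNA 1 and 2, beside 14602 in the non-targeting library. Its level was lowest with its own guide, but POU2F3 was not called because it was only 1.62-fold below COLCA2 gRNA 2, and it had a log2 difference of -1.02 ± 0.46 (SD, n = 2). COLCA2 (ENSG00000214290, chromosome 11, 111298555 to 111308735) had a normalized count of 1393 in the POU2F3 gRNA library, 3119 and 3541 with COLCA2 gRNA 1 and 2, and 5585 in the non-targeting library. The COLCA2 transcript was thus lower in the POU2F3 gRNA library than in either library that had received a COLCA2 guide, at 41.8% of their mean, and it was called lower with a log2 difference of -1.25 ± 0.13 (SD, n = 2). POU2F3 was at 9.92% of its non-targeting level with its own guide and at 25.2% and 16.1% with the COLCA2 guides. A transcript level does not measure how many alleles were disrupted, so neither transcript settles the labels.

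The other members of this regulatory group followed different orders. C11orf53 (ENSG00000150750, chromosome 11, 111245805 to 111286401), the second co-activator, had a normalized count of 195 in the POU2F3 gRNA library, 554 and 499 in the COLCA2 libraries and 1853 in the non-targeting library. It was called lower, with a log2 difference of -1.43 ± 0.11 (SD, n = 2). POU2AF1, the lymphoid co-activator of octamer-binding factors, had 166 in the POU2F3 gRNA library, 102 and 81.1 in the COLCA2 libraries and 90.7 in the non-targeting library. It lay above both guides but was not called. POU2F1, the broadly expressed octamer factor, had 953 with POU2F3 gRNA, between the COLCA2 guides at 858 and 1014. POU2F2 stayed under the expression minimum with 3 to 16 reads per library.

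Across all 14940 genes the POU2F3 gRNA library was close to both COLCA2 libraries. The median log2 difference from the mean of the guides was -0.0039, and the interquartile range was 0.37 against COLCA2 gRNA 1 and 0.33 against COLCA2 gRNA 2, beside 0.26 between the guides. The call rule picked 137 lower genes (0.917%) and 63 higher genes (0.422%), together 1.34% of the genes compared. With only COLCA2 gRNA 1 or only COLCA2 gRNA 2 in the comparison, 231 or 268 genes were at least 2-fold lower and 229 or 205 higher. By any amount, 38.9% of genes were below both guides and 35.6% above both. The guides themselves were at least 2-fold apart at 2.22% of genes. HELB, a higher gene at a 2.01-fold distance from the nearer guide after the pseudocount of 1, lay just inside the 2-fold limit, and AKR1C1, below both guides at a distance of 1.998-fold, just outside it. A gene listed at 0 in one of the 3 libraries made up 8 of the lower and 3 of the higher calls. On reads recovered from the values, edgeR's quasi-likelihood test with Benjamini-Hochberg adjustment at 0.05 gave 35 lower genes (0.234%) and 16 higher genes (0.107%), or 0.341% together. The COLCA2 pair supplied its 1 residual degree of freedom, so the lone POU2F3 gRNA library is assumed to vary like that pair, and the test compares these libraries. Of the 137 lower genes 30 passed this test, as did 7 of the 63 higher genes.

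**Figure D1:**
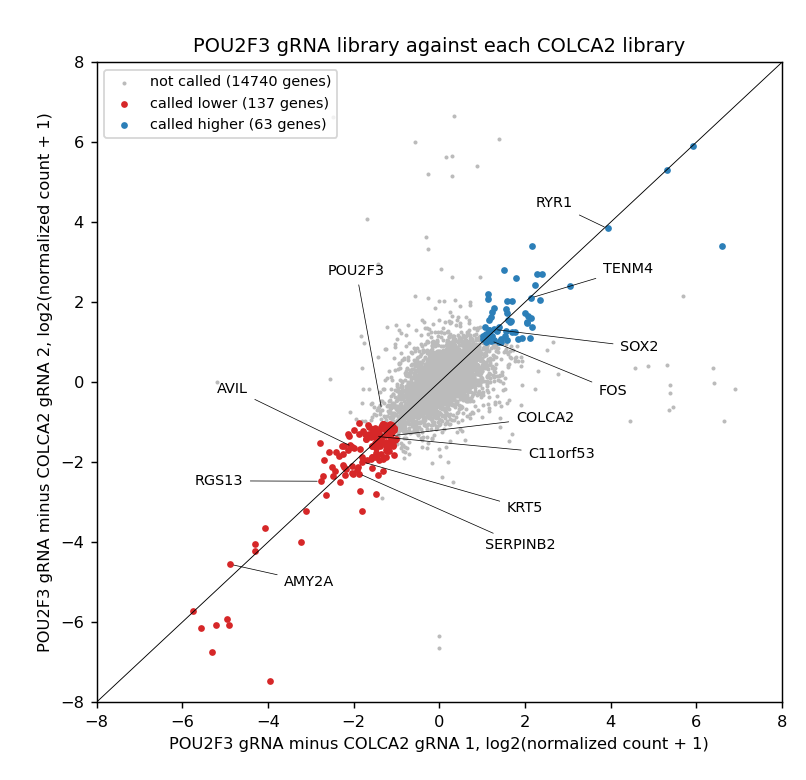
Each point is 1 of 14940 genes, with the log2(normalized count + 1) difference of the POU2F3 gRNA library from COLCA2 gRNA 1 on the horizontal axis and from COLCA2 gRNA 2 on the vertical axis. The 137 genes called lower (red) and the 63 called higher (blue) lie along the diagonal, on which the guides are level, while grey points near 0 on 1 axis and far out on the other are genes at which the guides differed; both axes share the POU2F3 gRNA library.

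The 12 named genes furthest below both guides, among called genes whose COLCA2 libraries averaged 100 or more, included the tuft genes RGS13, BMX and HEPACAM2 and the keratins KRT5, KRT6A and KRT6B. AMY2A, a pancreatic-type amylase, stood furthest: it had 4.20 with POU2F3 gRNA (5 reads), 152 and 121 with the guides and 642 in the non-targeting library. RGS13, a regulator of G-protein signalling found in tuft cells, had 128 with POU2F3 gRNA, 879 and 720 with the guides and 2518 in the non-targeting library. SPINK1, a secreted trypsin inhibitor, had 24.3 with POU2F3 gRNA, 136 and 116 with the guides and 82.1 in the non-targeting library. The guides stood nearer to each other than to the POU2F3 gRNA library in these genes, which the call rule requires and which is not a separate result. CRYM, a thyroid hormone-binding protein, was at 19.9% of the mean of the guides, S100A16 at 22.1%, KRT6B at 21.9% and KRT6A at 22.3%. BMX, a TEC-family kinase of tuft cells, was at 18.9%, SERPINB2 at 23.2%, KRT5 at 26.8%, HEPACAM2 at 20.8% and ITPRID1 at 28.0%. Of these 12, edgeR's adjusted p was 0.014 for AMY2A, RGS13, KRT6B, CRYM and KRT5, and the values for SPINK1 (0.073), BMX (0.068) and HEPACAM2 (0.099) missed 0.05.

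The genes furthest above both guides were of other kinds, and most had few reads with COLCA2 gRNA. RYR1, the skeletal-muscle calcium release channel, had 267 with POU2F3 gRNA (318 reads), 16.6 and 17.6 with the guides (16 and 15 reads) and 41.1 in the non-targeting library. This 15.1-fold distance from the nearer guide was the furthest among the named higher genes. TENM4, a teneurin adhesion receptor, had 591 with POU2F3 gRNA, 134 and 136 with the guides and 334 in the non-targeting library. SOX2, a transcription factor of foregut and basal progenitors, had 378 with POU2F3 gRNA, 156 and 151 with the guides and 142 in the non-targeting library. BOC, a Hedgehog co-receptor and the most abundant of the 12, had 3441, 1616, 1583 and 1016 in the same order. The other 8 were RAB6C-AS1, LRP2, TDRD6, GLI3, SHANK2, SV2B, ARHGEF34P and LHX9, between 2.19-fold and 5.42-fold above the nearer guide. RAB6C-AS1, named as an antisense gene, and ARHGEF34P are both annotated as pseudogenes in GENCODE, so their reads may be shared with related genes and are uncertain. edgeR's adjusted p was 0.014 for RYR1, TENM4 and BOC, 0.045 for RAB6C-AS1 and 0.066 for SOX2.

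**Figure D2:**
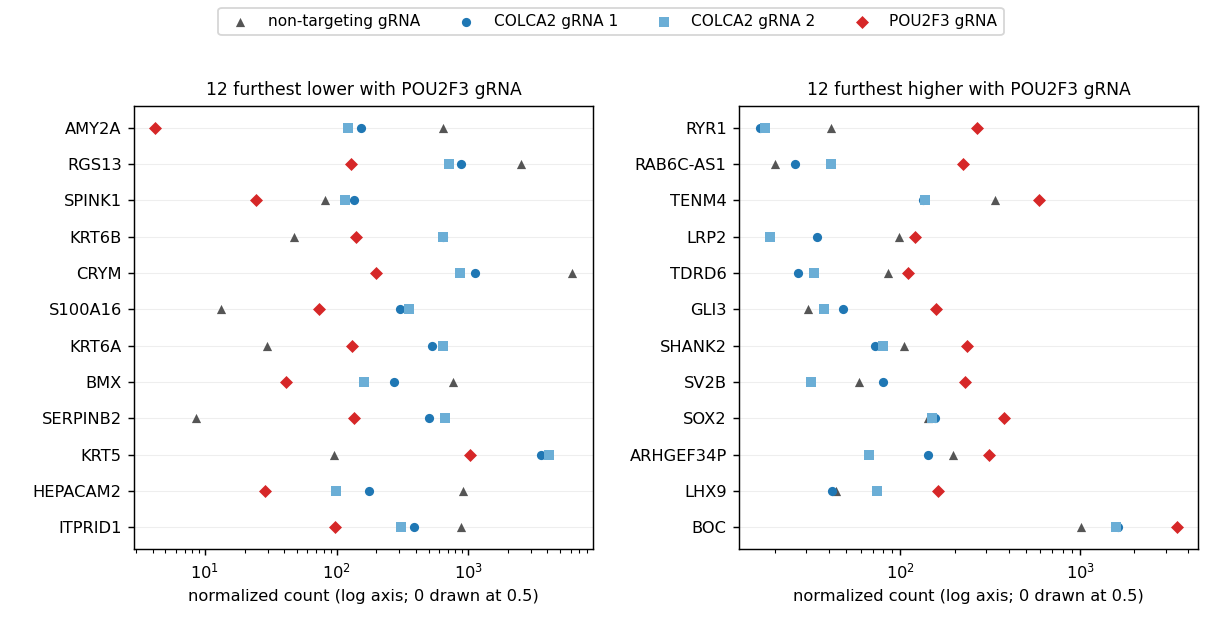
Normalized counts on a log axis in each library for the 12 genes furthest below (left) and the 12 furthest above (right) both COLCA2 libraries; each marker is 1 library. Red diamonds (POU2F3 gRNA) lie outside the blue pair (COLCA2 gRNA) in every row, which the call rule requires. Grey triangles (non-targeting gRNA) lie above the blue pair for RGS13 and CRYM and below the red diamond for KRT5 and SERPINB2.

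The lower genes fell into distinct orders relative to the non-targeting library, which the call rule had used only through the expression minimum. For 45 of the 137 (32.8%) the non-targeting level lay above all 3 libraries, so that the POU2F3 gRNA library stood furthest from it. Their median log2 ratio to the non-targeting library was -3.64 for POU2F3 gRNA and -1.66 for the COLCA2 mean. For 60 of the 137 (43.8%) the non-targeting level lay below all 3, so that the POU2F3 gRNA library stood nearest to it, with median log2 ratios of 2.12 and 3.96. In 27 genes the non-targeting level lay between POU2F3 gRNA and the guides or level with POU2F3 gRNA, and in 5 it lay between the guides. Among all 5814 genes below both guides by any amount, the non-targeting level was above all 3 in 29.7% and below all 3 in 40.7%. The shares among called genes were thus near those among all genes below both guides. Among the higher genes the non-targeting level lay between the guides and POU2F3 gRNA in 32 of 63 (50.8%), below all 3 in 14 (22.2%), above all 3 in 10 (15.9%) and between the guides in 7. Among all 5314 genes above both guides by any amount, it was above all 3 in 39.8% and below all 3 in 28.3%.

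All called tuft effector genes were of the first order, with the non-targeting library highest. Of 37 tuft effector genes 26 passed the minimum, and 8 of these (30.8%) were called lower and none higher, against 0.917% and 0.422% of all genes. The median difference over the 26 was -0.41, beside -0.0039 over all genes, and the median distance between the guides over the list was 0.13. Among members with a mean of 100 or more the median was -0.25. AVIL, the actin-binding protein advillin of the tuft cell apical bundle, had 242 with POU2F3 gRNA, 990 and 742 with the guides and 5093 in the non-targeting library. ALOX5, the 5-lipoxygenase that begins leukotriene synthesis, had 506 with POU2F3 gRNA, 1261 and 1046 with the guides and 6311 in the non-targeting library. LRMP, a membrane protein linked to calcium release, had 260, 810, 562 and 6229 in the same order. POU2F3 gRNA was lowest and the non-targeting library highest in all of these. SH2D6, an adaptor protein, was at 10.9 with POU2F3 gRNA against 54.9 and 35.3, with 13 reads in the POU2F3 gRNA library.

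Other tuft genes were level between the targets. KIT, the stem cell factor receptor, had 1515 in the POU2F3 gRNA library and 1527 and 1505 in the COLCA2 libraries, all below the 3084 of the non-targeting library. BCL2, IL17RB and ITPR3 also differed by less than 0.2 on the log2 scale. DCLK1, a kinase used as a tuft marker in mouse, lay the other way, at 246 with POU2F3 gRNA against 150 and 160 with the guides, and was not called. None of the 11 tuft regulators past the minimum was called, and their median difference was 0.0064. SOX9 had 7566 with POU2F3 gRNA, between 8463 and 6645 with the guides. GFI1B, a repressor of the tuft and blood lineages, was at 181 against 520 and 315, a log2 difference of -1.16 ± 0.51 (SD, n = 2) that missed the 2-fold limit against COLCA2 gRNA 2. Several genes called lower outside the list shared the order of AVIL and were named after their values had been seen. RGS21, a taste-cell regulator of G-protein signalling, had 36.1 with POU2F3 gRNA against 178 and 112. PLA2G4D, a cytosolic phospholipase A2, had 90.6 against 373 and 280, and ENPP2 (autotaxin), which makes lysophosphatidic acid, had 285 against 849 and 867. Log2 differences (± SD, n = 2) were -1.82 ± 0.29 for AVIL, -1.18 ± 0.19 for ALOX5 and -1.94 ± 0.47 for RGS21. Those of PLA2G4D and ENPP2 were -1.82 ± 0.29 and -1.58 ± 0.021.

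Called keratin, S100 and clade B serpin genes were mostly of the second order, in which all 3 libraries were above the non-targeting level and POU2F3 gRNA was the nearest to it. KRT87P and SERPINB12 were the exceptions, with the non-targeting level between POU2F3 gRNA and the guides. Keratins 5, 6 and 16 mark basal and activated squamous epithelium, S100 proteins are small calcium-binding proteins, and clade B serpins are intracellular protease inhibitors. KRT5 had 1024 with POU2F3 gRNA, 3558 and 4079 with the guides and 95.5 in the non-targeting library. KRT6B had 141 with POU2F3 gRNA, 643 with each guide and 47.7 in the non-targeting library, and KRT16 had 316, 888, 906 and 32.5 in the same order. S100A9, a subunit of calprotectin, had 211 with POU2F3 gRNA, 585 and 720 with the guides and 26.7 in the non-targeting library. SERPINB2, an inhibitor of plasminogen activators, had 135 with POU2F3 gRNA, 501 and 662 with the guides and 8.59 in the non-targeting library. These genes are named as examples of the second order, in which the POU2F3 gRNA library stands between the non-targeting and the COLCA2 libraries. Among all 5814 genes below both guides by any amount, 40.7% had this order. KRT6A and KRT6B are near-identical copies, as are SERPINB3 and SERPINB4, so the split of reads within each pair is uncertain.

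By list, 6 of 18 basal and squamous genes past the minimum were called lower (KRT5, KRT6A, KRT6B, KRT16, TRIM29 and S100A2) and 1 higher (SOX2), with a median difference of -0.63. Of 10 clade B serpins 6 were called lower and none higher, with a median of -1.16, or -0.47 among members with a mean of 100 or more. Whole families, counted after their values had been seen, gave 7 of 25 keratins lower with a median of -0.64 and 6 of 11 S100 genes lower with a median of -1.21. These lists and families shared members, and the background was 0.917% of all genes. Not every squamous gene followed. KRT15 had 5264 with POU2F3 gRNA, between 4695 and 5658 with the guides, and KLF5 had 2471 beside 2521 and 2519. TP63, the master regulator of basal cells, had 159 with POU2F3 gRNA against 188 and 265 with the guides and was not called. KRT13 lay the other way, at 1475 against 720 and 815, and edgeR's adjusted p for it was 0.046, as against 0.038 for KRT17, which was lower at 9530 against 16567 and 19594 but missed the 2-fold limit for one guide.

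Many of these genes are neighbours in the genome. Called lower genes at most 500000 bp apart formed 3 runs of more than 2 genes. On chromosome 1, between 153357854 and 153616986 in GRCh38, 5 of the 7 genes compared that lie wholly inside the interval were called (S100A9, S100A8, S100A2, S100A16 and S100A14). On chromosome 12, between 52250466 and 52520687, 6 of 7 were called (KRT87P, KRT84, KRT75, KRT6B, KRT6A and KRT5). On chromosome 18, between 63476761 and 63903890, all 6 genes compared were called (SERPINB5, SERPINB12, SERPINB4, SERPINB3, SERPINB7 and SERPINB2). The ends of each interval are called genes, so its share is a description. No such run was found among the higher genes.

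**Figure D3:**
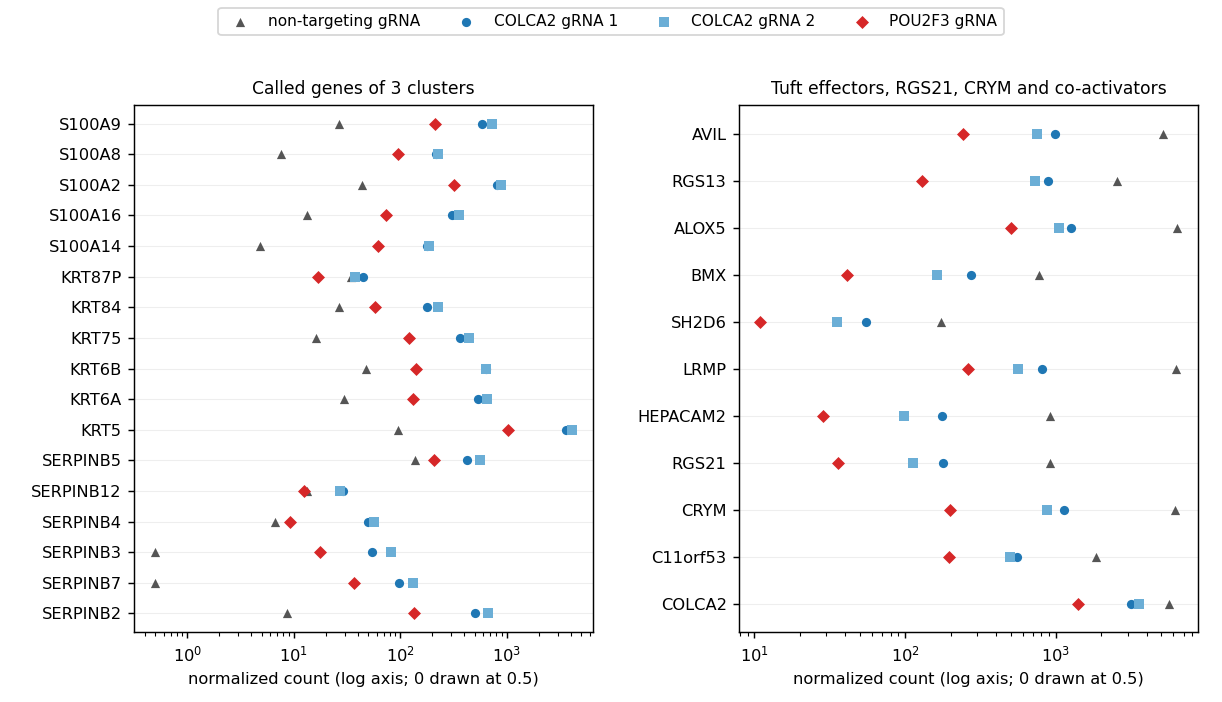
Normalized counts on a log axis in each library for the called genes of the S100, keratin and clade B serpin runs (left) and for called tuft effectors named in the text with RGS21, CRYM, C11orf53 and COLCA2 (right); each marker is 1 library. Red diamonds (POU2F3 gRNA) are below the blue pair (COLCA2 gRNA) in both panels, which the call rule requires. Grey triangles (non-targeting gRNA) are to the left of the red diamonds in the left panel, except for KRT87P and SERPINB12. In the right panel they are to the right of all others.

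Promoters were searched for the octamer ATGCAAAT, the motif of POU2F3 and related factors, and for the AP-1 motif TGANTCA, both on either strand, in RefSeq windows (GRCh38.p14) from 250 bases before to 50 after the gene's start. RefSeq starts can differ from the GENCODE gene bounds used elsewhere here: the CORO2B window lies upstream of the GENCODE gene and the SERPINB2 window inside it. Windows were found for 92 of the 137 lower genes (67.2%), under the 80% set as the least for a comparison with other genes. Of all genes compared 76.0% had a window, also under that limit, and of the 63 higher genes 38 had one. No comparison of the lower or the higher genes with all genes is therefore made, and the shares below are descriptions only. Of all compared genes with a window, 1.43% held the octamer and 4.68% the AP-1 motif, and of all RefSeq windows given 1.80% and 7.76% did. A TEAD motif, GGAATG, was also searched and was held by 10.8% of compared genes with a window. Among the 92, only CORO2B, an actin-binding coronin at 12.6 with POU2F3 gRNA against 43.5 and 35.3 with the guides, held the octamer, 10 (10.9%) held the AP-1 motif and 20 (21.7%) the TEAD motif. Of the 17 called genes in the S100, keratin and serpin runs 14 had a window. None of the 14 held the octamer and 4 held the AP-1 motif, while KRT75, S100A16, SERPINB3 and SERPINB4 held the TEAD motif. Among 38 higher genes with a window 0 held the octamer, 5 (13.2%) the AP-1 motif and 4 (10.5%) the TEAD motif. The only octamer match among the 92 genes and the AP-1 matches of the 4 run genes are printed, to show the letters around each, with the motif in capitals and 21 bases on each side.
CORO2B (chr15:68518304-68518353, plus strand, octamer): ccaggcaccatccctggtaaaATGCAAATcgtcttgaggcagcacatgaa
S100A2 (chr1:153565869-153565917, minus strand, AP-1): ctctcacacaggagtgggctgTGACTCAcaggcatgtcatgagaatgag
SERPINB2 (chr18:63887582-63887630, plus strand, AP-1): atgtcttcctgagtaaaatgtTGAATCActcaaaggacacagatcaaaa
SERPINB5 (chr18:63476791-63476839, plus strand, AP-1): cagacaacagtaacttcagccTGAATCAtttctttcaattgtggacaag
SERPINB12 (chr18:63542303-63542351, plus strand, AP-1): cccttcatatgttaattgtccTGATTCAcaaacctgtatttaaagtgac
A match is a description of these letters, not evidence of binding, and a window without one says nothing of sites elsewhere.

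The amylase and alcohol dehydrogenase list held the largest differences. Of its 6 genes past the minimum 4 were called lower and none higher, against 0.917% and 0.422% of all genes, with a median of -2.84. This list was chosen with earlier results of these data known. AMY1C, a salivary-type amylase, had 5.04 with POU2F3 gRNA, 101 and 75.3 with the guides and 447 in the non-targeting library. AMY2B, by contrast, had 134 against 191 and 162 and was not called. Amylase genes are near-identical copies, so reads may be split among them. ADH1C was listed at 0 in the POU2F3 gRNA library and had 18 and 15 reads in the COLCA2 libraries, at least 7.01-fold higher there against a floor of 3 reads per library. ADH1B had 12.6 with POU2F3 gRNA against 42.5 and 51.7, and ADH5, the class III enzyme present in most cells, was level at 3599 against 3478 and 3745.

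AP-1 and other signal-responsive genes were higher with POU2F3 gRNA at some members only. FOS, an AP-1 subunit induced within minutes of stimulation, had 4875 with POU2F3 gRNA, 2125 and 2367 with the guides and 2791 in the non-targeting library. It was the only higher call among 14 AP-1 genes, whose median was 0.064, and edgeR's adjusted p for it was 0.015. BATF3, a partner of JUN proteins, was called lower at 241 against 599 and 495. EGR1, another early-response factor, had 11067 against 5864 and 5272 and missed the 2-fold limit for COLCA2 gRNA 1, with an adjusted p from edgeR of 0.015.

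Single members were called in several other lists, beside 1.34% of all genes called. MUC16, a cell-surface mucin, was at 6.71 with POU2F3 gRNA against 34.2 and 37.6, the only call among 12 secretory genes (median -0.39). AKR1C2, an aldo-keto reductase, was at 718 against 1714 and 2028, the only call among 23 detoxification genes (median -0.37). IL18, an epithelial cytokine, was at 73.0 against 218 and 225, the only call among 18 chemokine and interleukin genes (median -0.37). LAMB3, a chain of laminin 332, was at 1151 against 2474 and 2753, the only call among 32 matrix and adhesion genes (median -0.098). DKK1, a Wnt antagonist, was at 350 against 733 and 780, the only call among 36 Wnt and TGF-beta genes (median -0.020). All these genes had lower values in the non-targeting library than in any of the others. Among 23 ion channel genes RYR1 was the only call (median -0.021). The 35 respiratory chain genes past the minimum had a median of -0.15.

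Most lists held no called gene. Of all genes 1.34% were called, so a short list without a call is near that share. The EGFR family and its ligands had 0 of 13 called with a median of -0.50, and EGFR itself had 2615 with POU2F3 gRNA against 3370 and 3155. YAP and TEAD targets had 0 of 22 called and a median of 0.080, and CCN1, a leading YAP target, had 20909, between 18379 and 21551 with the guides. Mesenchymal genes had 0 of 19 called (median -0.13), although VIM (vimentin) had 80266 with POU2F3 gRNA against 45314 and 42972, with an adjusted p from edgeR of 0.015. Neuroendocrine genes had 0 of 10 called (median 0.026), and of these NCAM1 had 2679 against 1765 and 1797. For cell division, 0 of 28 DNA replication genes (median -0.059) and 0 of 26 mitosis genes (median -0.053) were called, and MKI67 had 15334 against 14830 and 13398. The p53 targets had 0 of 22 called (median -0.018), the interferon-stimulated genes 0 of 28 (median -0.070) and the MHC class I genes 0 of 17 (median -0.13). Notch genes had 0 of 18 called (median -0.0022), the IGF axis 0 of 14 (median -0.076), the MYC network 0 of 13 (median 0.15) and proteases and their inhibitors 0 of 16 (median -0.11).

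Metabolic and housekeeping lists gave the size of small shared shifts. Cholesterol and fatty acid synthesis had 0 of 32 called (median 0.10), glycolysis and hypoxia 0 of 32 (median -0.19) and ATF4 targets with serine synthesis 0 of 24 (median -0.086). Ribosomal proteins had 0 of 52 called with a median of -0.095 and 41 members below both guides, against 38.9% of all genes. The 15 reference genes had a median of -0.16 and 11 members below both guides. ATP5F1B, the catalytic subunit of ATP synthase, had 24693 with POU2F3 gRNA against 27778 and 26774. The 11 markers of other cell types past the minimum had 0 calls and a median of 0.085.

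**Figure D4:**
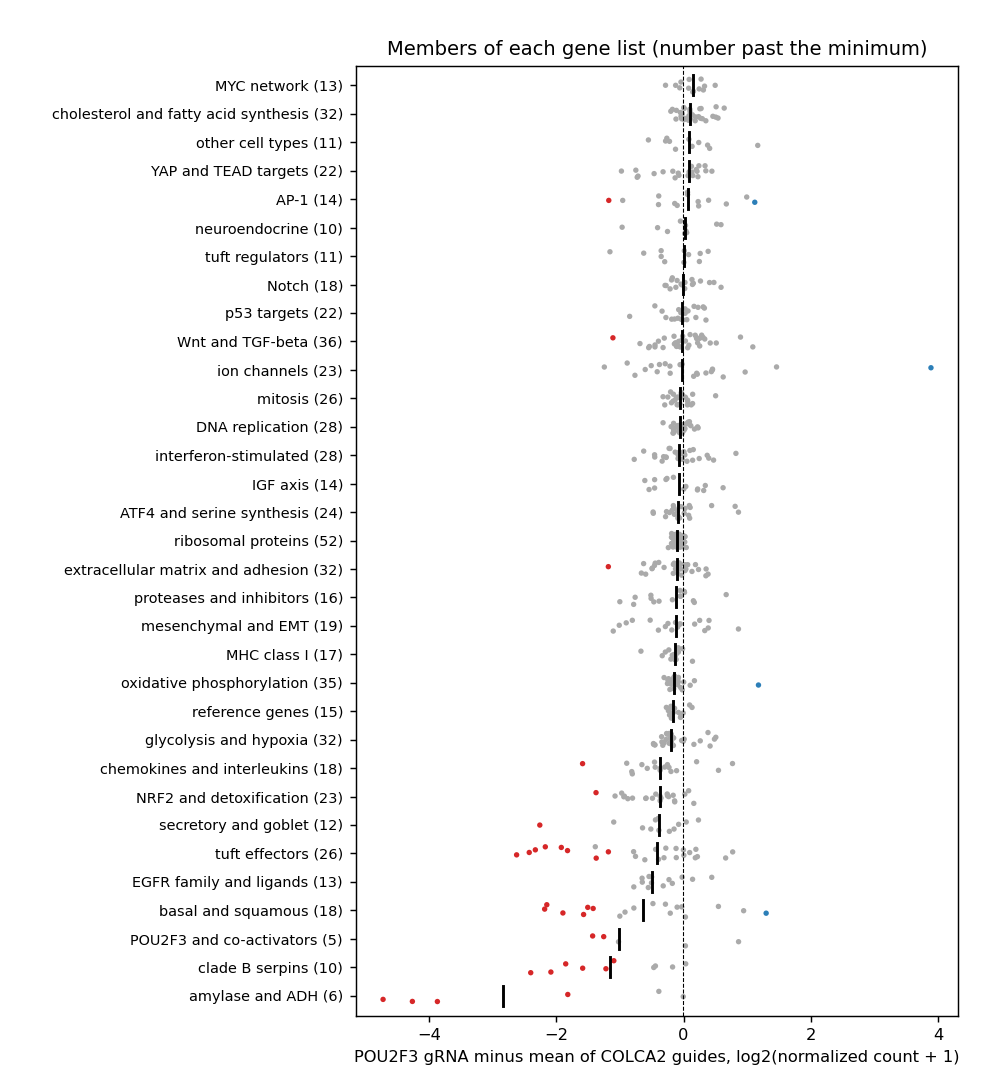
Each point is 1 gene of the list named on the vertical axis (with the number of members past the minimum), and the horizontal axis is the log2(normalized count + 1) difference of the POU2F3 gRNA library from the mean of the COLCA2 libraries; black bars are list medians, the dashed line is the median of all genes and colours mark calls. Medians are -2.84 for the amylase list, -1.16 for clade B serpins and -0.63 for basal and squamous genes, while most other lists lie within 0.2 of 0.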

How the data were processed

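Poly(A) RNA from 4 NCI-H1048 libraries was measured. Per the submitters' processing notes, Salmon and DESeq2 were used with hg38; versions, annotation and use of the strand are not given in the sources used here. Per the file headers, the authors deposited a normalized count for each gene, a signal on a linear scale. In each library 100% of them were whole multiples (within 0.001) of 1 step, so they are whole counts divided by 1 factor per library. These counts are called reads here, and whether they were rounded from Salmon's estimates is not given in the sources used here.

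Rows of the same symbol were summed (1149 symbols had more than 1). The fold rule, with a pseudocount of 1, was the main result, without a test, because 1 group held 1 library. edgeR 4.0.16 (quasi-likelihood, TMM), DESeq2 1.42.0 and limma 3.58.1 were run as alternatives on 3 groups, the first pair on recovered reads, with Benjamini-Hochberg adjustment over 14940 genes at 0.05. Scripts were tested on simulated data. Positions come from GENCODE release 29 (GRCh38).

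Members and gene lists were chosen with earlier results of these data known. Named genes are the targeted genes and their partners, the 12 furthest lower and 12 furthest higher called genes reaching 100 on the higher side (symbols that only name a clone left out), called list members, and up to 2 of the most abundant members of other lists. Other names were chosen after their values were seen, as stated or as examples of their list. A few genes counted in the lists are not reported here by name.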

Additional observations from a re-analysis of the deposited data

How the results depend on the processing

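The 3 scalings gave 135 to 137 lower and 63 to 64 higher genes, with an all-gene median between -0.0026 and 0.031 and a share of higher calls between 31.5% and 32.2%. With a pseudocount of 10, 36 genes were higher. Without an expression minimum 711 were lower and 753 higher, and with a mean of at least 100 there were 62 and 11, and the tuft effector median was -0.25. A 1.5-fold threshold gave 358 and 265, and a 4-fold threshold 27 and 11. edgeR gave 35 and 16 and limma 32 and 13, while DESeq2 gave 93 and 50. At an unadjusted p under 0.05 edgeR gave 1008 and 1030. Leaving out one COLCA2 library, which also removes the spread condition, gave 231 to 268 lower and 205 to 229 higher genes, and a tuft effector median of -0.49 to -0.43. The POU2F3 difference then lay between -1.34 and -0.70 and that of COLCA2 between -1.35 and -1.16. Chosen after seeing the data, list medians under other minimums were -0.47 for clade B serpins with a mean of at least 100 (-1.16 as reported) and, without a minimum, -0.74 for S100 genes (-1.21 as reported) and -0.41 for basal and squamous genes (-0.63 as reported). Equal totals left 5 serpins called instead of 6. Of 50 named called genes none changed sign under the scalings, pseudocounts or left-out guides. No paired analysis was possible because POU2F3 gRNA has only 1 library. Calls of genes with few reads, such as SH2D6, are limited by depth.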

Other observations

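Hedgehog pathway genes, a list written after values had been seen, included 4 of the 63 higher genes. Of 14 members past the minimum, GLI3, BOC, DISP1 and LRP2 were called higher and none lower, against 0.422% of all genes called higher. For lists written after the values such a share is a description only. GLI3, a transcription factor of the pathway, had 157 with POU2F3 gRNA against 47.7 and 37.6 with COLCA2 gRNA 1 and 2 and 30.6 in the non-targeting library. DISP1, which releases the ligand, had 63.0 against 13.5 and 19.99, and LRP2 (megalin) had 120 against 34.2 and 18.8. PTCH1, the receptor and a target of the pathway, had 2259 against 1328 and 1599 and was not called. GLI1, another target, had 165 against 163 and 99.96.

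Immediate-early genes, listed in the same way, gave 2 higher calls (FOS and EGR3) and no lower call among 13, against the same 0.422%, with a median difference of 0.40.

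Barrier genes of cornified epithelium, also listed after values had been seen, gave 12 lower and no higher calls among 19, against 0.917% of all genes called lower. TGM3, a transglutaminase, had 5.04 with POU2F3 gRNA (6 reads) against 56.0 and 95.3 with the guides. SBSN (suprabasin) had 5.88 (7 reads) against 58.1 and 63.5. SLPI, a secreted protease inhibitor, had 302 against 687 and 871, and SPINK5, a kallikrein inhibitor, had 469 against 1104 and 1074. ABCA12, a lipid transporter, was unlike most of these in that the non-targeting library was highest, at 208 beside 35.3 with POU2F3 gRNA.

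The pseudogenes MTX1P1 and EIF1AXP1 were listed at 0 in the POU2F3 and non-targeting gRNA libraries, and had 51 and 44 reads, and 45 and 59 reads, with COLCA2 gRNA 1 and 2. The readthrough gene HSPE1-MOB4 was listed at 0 with POU2F3 gRNA only. Protocadherin genes were counted as a family after their values had been seen, so their shares are a description only. Among 45 past the minimum, 30 were above both guides and 7 below both, against 35.6% and 38.9% of all genes. Their median difference was 0.38, and the split of reads among related members was not tested. PCDH12 and PCDHA3 were called higher, against 0.422% of all genes.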
